A study of Mus musculus with 6 samples.

Results

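Lung microvascular endothelial cells were isolated from Ptprz1+/+ and Ptprz1-/- mice, and the RNA of 3 isolations per genotype was sequenced. The 6 libraries did not hold equal amounts of endothelial RNA, and the 2 kinds of library were chosen by the level of Pecam1, the gene of the surface protein CD31 on which the cells had been sorted. A library was named endothelial-rich when Pecam1 reached at least 20 CPM (its reads scaled to the library's total, counts per 1e6 reads) and endothelial-poor otherwise. Replicates 1, 2 and 3 of Ptprz1+/+ had Pecam1 levels of 3.73, 4.52 and 88.0 CPM, and those labelled Ptprz1-/- had 1.41, 1.43 and 33.9 CPM. Replicate 3 of each genotype was therefore endothelial-rich, 2 of the 6 libraries, and the other 4 were endothelial-poor. Endothelial-rich against endothelial-poor thus cannot be told apart from replicate number 3 against the other numbers. The highest poor library (4.52 CPM) and the lowest rich one (33.9 CPM) lay on either side of the limit, with none between. Pecam1 was left out of every result that follows.

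All 6 isolations came from untreated cells of SV129/B6 mice aged 3 to 8 weeks, and each pooled the lungs of 2 to 5 mice. The lungs were digested with collagenase, grown to confluence in medium with endothelial growth supplement and heparin, and then separated with magnetic beads carrying an antibody to CD31. The genotypes differ in Ptprz1, which encodes a receptor-type tyrosine phosphatase that binds pleiotrophin.

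Endothelial cells line blood and lymphatic vessels. They are held together by VE-cadherin (Cdh5) and claudin-5 (Cldn5), respond to vascular endothelial growth factor and angiopoietins through tyrosine kinase receptors (Kdr, Flt1, Tek, Tie1), and keep their identity through transcription factors of the ETS and SOX families. In culture, fibroblasts, smooth muscle cells and mesothelial cells of the lung can grow beside them. In bulk RNA, fewer endothelial cells and less endothelial RNA per cell cannot be told apart.

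The libraries held between 14496881 and 17709663 counted reads. Reads of the targeted gene were present in all of them (Ptprz1, ENSMUSG00000068748, chr6:22875502-23052916 on GRCm38). Replicates 1, 2 and 3 of Ptprz1+/+ had 197, 1837 and 508 of its reads, and those labelled Ptprz1-/- had 1138, 1320 and 895. The targeted gene thus did not separate the genotypes, and where the deletion lies in the gene was not given in the sources used here. The rich library labelled Ptprz1-/- stood apart in a pair of abundant transcripts. Yam1, a noncoding RNA, was at 634 CPM there and at 23950 to 36390 CPM in the other 5 libraries. It overlaps an rRNA gene (CT010467.1) on the opposite strand, and the part of rRNA reads in its level was not tested. Lars2, a mitochondrial tRNA synthetase gene, was at 46.3 CPM there and at 1192 to 2853 CPM elsewhere. Sex-linked genes differed between the pools: Xist, expressed from the inactive X chromosome, had 2 reads in Ptprz1+/+ replicate 1 and 0 in the library labelled Ptprz1-/- replicate 1, and 4 Y-linked genes were each under 1 CPM in the library labelled Ptprz1-/- replicate 2. Both rich libraries held Xist together with Y-linked reads, as did poor Ptprz1+/+ replicate 2 (4079 reads of Xist and 679 of the Y-linked Ddx3y). The part of sex in the contrast was not tested.

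CPM values from here on are scaled to library size by edgeR's TMM method. A gene was called higher when the CPM of the rich library, with 0.5 added, was at least 2-fold above that of each poor library of the same genotype, in both genotypes, and called lower in the mirrored case. Fitted log2 fold changes (rich minus poor, adjusted for genotype) are given with their standard error (SE), from 2 rich and 4 poor libraries. No p-value is given for this contrast, because the libraries were divided by a measured level that endothelial genes share. By this rule 197 of 13353 genes tested (1.48%) were called higher and 26 (0.195%) were called lower. A gene was tested when it reached at least 1 CPM in at least 2 libraries, which the 2 rich libraries alone can meet. Of the 197, 63 were under 1 CPM in every poor library, so the count called higher depends in part on this filter. With a library left out, a call has fewer ratios to pass. Leaving out Ptprz1+/+ replicate 2 gave 312 and 68, and leaving out the poor library labelled Ptprz1-/- replicate 2 gave 94 called lower. Without either rich library a single genotype was left, and the counts were 402 and 121 (without Ptprz1+/+ replicate 3) or 404 and 170 (without the library labelled Ptprz1-/- replicate 3).

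**Figure D1:**
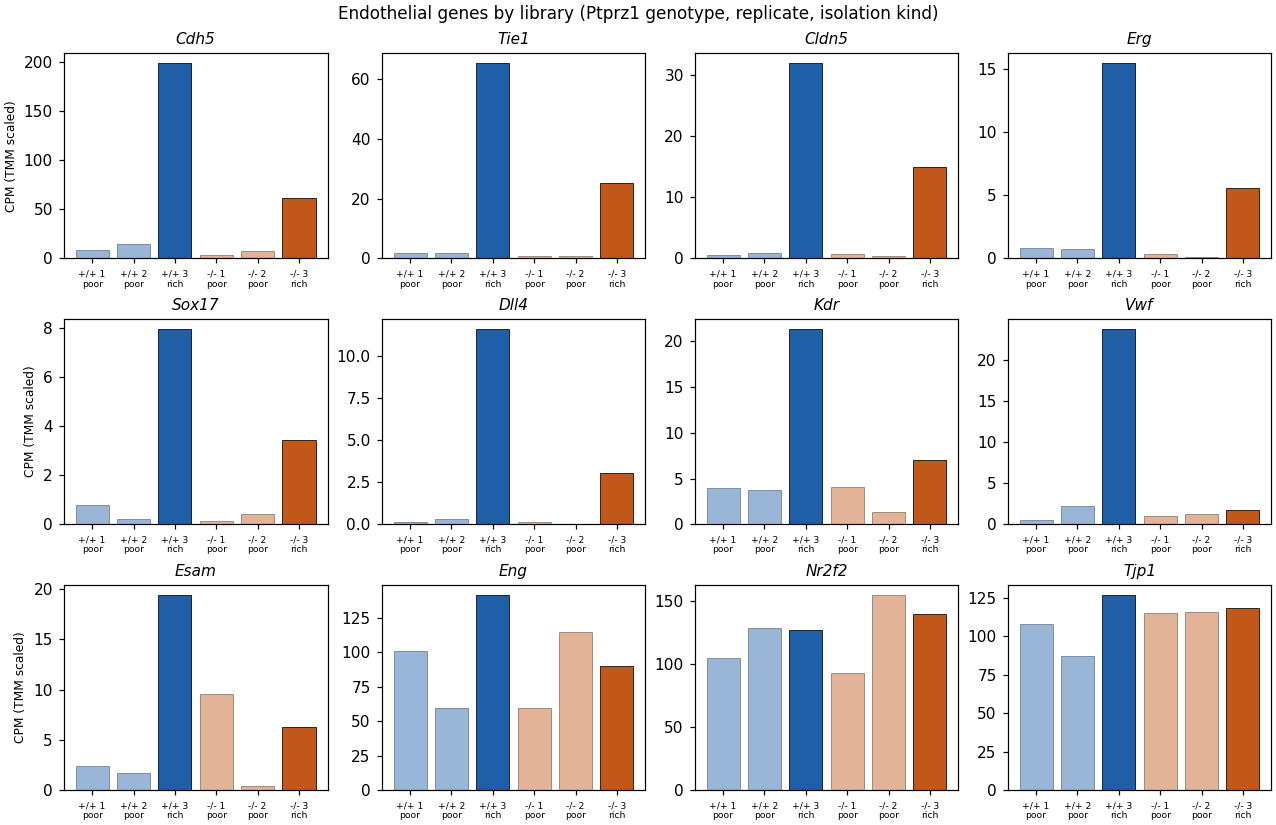
Expression of 12 endothelial genes in each library, in CPM on a linear axis that starts at 0 and is scaled per gene. Blue bars are Ptprz1+/+ libraries, orange bars are libraries labelled Ptprz1-/-, and full colour marks the endothelial-rich library of each genotype. Cdh5 reached 199 and 61.2 CPM in the rich libraries against at most 14.4 in the poor ones, while rich and poor libraries overlapped for Eng and Nr2f2, and the rich ones lay less than 2-fold above the poor ones for Tjp1.

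The genes of endothelial identity formed 3 lists, of receptors, junction proteins and transcription factors. Of 41 tested, 21 were called higher and 0 lower, against 1.48% and 0.195% of all genes. Some of the 41, such as Sox18 and Robo4, passed the filter on low counts only through the rich libraries. The fitted change was above 0 for 38 of the 41, with a median log2 fold change of 2.61, where the median of all genes was -0.04. Summed over the 21 called genes, the Ptprz1+/+ libraries held 48.5, 64.5 and 719 CPM in the order of their numbers, and the libraries labelled Ptprz1-/- held 26.0, 33.6 and 262 CPM. The rule for a call fixes that the rich library exceeds the poor ones of its genotype in this sum. Summed over all 3 lists, called or not, the levels were 946, 854 and 1962 CPM in the Ptprz1+/+ libraries and 697, 1349 and 1143 CPM in those labelled Ptprz1-/-. In that sum, which abundant genes such as Klf4 enter, the rich library labelled Ptprz1-/- lay below the poor library labelled Ptprz1-/- replicate 2.

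Cdh5 (ENSMUSG00000031871, chr8:104101625-104144502), the second marker used to check the division, encodes VE-cadherin, the adhesion protein of endothelial junctions. For each genotype in turn its levels in replicates 1, 2 and 3 were 8.69, 14.4 and 199 CPM (Ptprz1+/+) and 3.60, 7.42 and 61.2 CPM (labelled Ptprz1-/-). The groups did not overlap, and the rich library was 13.8-fold and 8.26-fold above the higher poor library of its genotype (fitted log2 fold change 3.81, SE 0.36). A further measure of how endothelial the libraries were comes from FPKM, which corrects for gene length. Cdh5 was at 48.2 FPKM in the rich Ptprz1+/+ library, where the collagen gene Col3a1 was at 2165 FPKM and Col1a1 at 977 FPKM. Transcripts of mesenchymal collagens thus outnumbered VE-cadherin per length in the library richest in Cdh5 too.

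Among 15 receptors and surface proteins, 10 were called higher, and the median log2 fold change was 2.79. Tie1, an orphan receptor tyrosine kinase of the angiopoietin pathway, measured 1.93, 1.82 and 65.5 CPM in the Ptprz1+/+ libraries and 0.81, 0.69 and 25.3 CPM in those labelled Ptprz1-/- (log2 fold change 5.10, SE 0.16). Both rich libraries were more than 30 times above each poor library of their genotype. Robo4, an endothelial guidance receptor, measured 0.785, 0.495 and 15.1 CPM against 0.186, 0.275 and 5.94 CPM in the same order (4.59, SE 0.32). Emcn (4.15, SE 0.48), Icam2 (3.91, SE 0.54), Cd93 (3.24, SE 0.57), Podxl (3.23, SE 0.22), Plvap (2.61, SE 0.37) and Adgrl4 (Eltd1 in the file; 4.33, SE 0.40) were also called higher. Of the growth factor receptors, Tek, the angiopoietin receptor, was called higher at 14.5 and 5.81 CPM in the rich libraries and 0.66 to 2.13 CPM in the poor ones. Flt1, a receptor of vascular endothelial growth factor, was called higher at 44.6 and 19.3 CPM against 2.23 to 8.63 CPM.

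Kdr, the main signalling receptor of that growth factor, was not called. It measured 3.98, 3.74 and 21.4 CPM in the Ptprz1+/+ libraries and 4.09, 1.31 and 7.06 CPM in those labelled Ptprz1-/-. The rich libraries were the highest of their genotype, but in those labelled Ptprz1-/- the difference from the nearest poor library was 1.73-fold. Clec14a, S1pr1, Ptprb and Eng were the other 4 receptors not called. Eng, a TGF-beta co-receptor that stromal cells also express, measured 101, 59.5 and 142 CPM against 59.6, 115 and 90.4 CPM, so rich and poor libraries overlapped. S1pr1, the sphingosine-1-phosphate receptor, was higher in poor Ptprz1+/+ replicate 2 (95.2 CPM) than in either rich library (86.7 and 44.0 CPM).

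Among 13 junction, polarity and secreted proteins that were tested, 6 were called higher and the median was 2.79. Cldn5, which seals tight junctions, measured 0.60, 0.88 and 32.1 CPM in the Ptprz1+/+ libraries and 0.74, 0.41 and 15.0 CPM in those labelled Ptprz1-/- (5.07, SE 0.33). The ranges of rich and poor libraries lay far apart for this gene. Ushbp1 (4.84, SE 0.44), Mmrn2 (3.60, SE 0.46), Egfl7 (2.89, SE 0.33) and Rasip1, a regulator of vessel lumen formation (2.79, SE 0.27), completed the called genes beside Cdh5. Esam, an adhesion molecule of endothelial cells and platelets, was not called: the library labelled Ptprz1-/- replicate 1, endothelial-poor by Pecam1, held 9.55 CPM, more than the 6.34 CPM of the rich library of its genotype. Jam2 measured 59.3, 137 and 231 CPM against 23.6, 121 and 119 CPM, and Tjp1, a scaffold of tight junctions in most epithelia and endothelia, measured 127 and 118 CPM in the rich libraries and 87.1 to 116 CPM in the poor ones, above all poor libraries but under the 2-fold limit. When the analysis kept genes with at least 10 reads in every library, a filter that drops genes with few reads in the poor libraries, 10 identity genes were called and the median of this list was 1.29.

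Among 13 transcription factors tested, 5 were called higher and the median was 0.97. Sox18 measured 0.54, 0.33 and 12.7 CPM in the Ptprz1+/+ libraries and 0.248, 0.275 and 5.48 CPM in those labelled Ptprz1-/- (4.62, SE 0.33), and Sox17 0.785, 0.220 and 7.95 CPM against 0.12, 0.41 and 3.43 CPM (3.84, SE 0.60). Both are SOX factors of arterial and lymphatic development. Of the ETS family, Erg, which maintains endothelial identity, measured 0.845, 0.771 and 15.5 CPM against 0.37, 0.14 and 5.54 CPM (4.31, SE 0.36), and Fli1 was called as well (2.87, SE 0.70), as was the repressor Bcl6b (2.98, SE 0.66). In all of these the poor libraries were under 2 CPM, with the exception of Bcl6b at 4.35 CPM in Ptprz1+/+ replicate 2. Other members were abundant in poor libraries too: Elk3, another ETS factor, ranged from 62.5 to 120 CPM, and Nr2f2, a factor of venous endothelium and of stroma, from 93.1 to 155 CPM, with the rich libraries inside these ranges. Klf4, a flow-responsive factor, was highest in the poor library labelled Ptprz1-/- replicate 2 at 491 CPM. The median of this list depended on the filter on low counts, at 0.15 with at least 10 reads in every library and 1.87 with no filter. Hhex, Lyl1 and Tal1 were not tested, because they did not reach 1 CPM in at least 2 libraries. They had 66, 20 and 46 reads in rich Ptprz1+/+ replicate 3 and 9, 9 and 11 in the rich library labelled Ptprz1-/-. Each poor library held 0 to 7 reads of them.

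Of the 20 identity genes not called, 6 averaged over 50 CPM, and of the 21 called genes 0 did. Of the same 20, the rich library was 2-fold above both poor ones for 8 in Ptprz1+/+ and for 1 in the libraries labelled Ptprz1-/-.

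To show the regulatory sequence of genes that were called together, the promoter windows (250 bases before to 50 after the start of the gene, RefSeq, GRCm38.p6) of 4 genes called higher and 1 called lower are printed 5′ to 3′ on the gene's strand. Capitals mark AGGAAG, a core bound by ETS factors, and AACAAT, a core bound by SOX factors, on either strand. The windows are chr4:118489800-118490099 (minus strand) for Tie1, chr9:37401722-37402021 (plus) for Robo4, chr16:18776597-18776896 (plus) for Cldn5, chr2:119325534-119325833 (plus) for Dll4 and chr9:121495645-121495944 (minus) for Cck.
Tie1: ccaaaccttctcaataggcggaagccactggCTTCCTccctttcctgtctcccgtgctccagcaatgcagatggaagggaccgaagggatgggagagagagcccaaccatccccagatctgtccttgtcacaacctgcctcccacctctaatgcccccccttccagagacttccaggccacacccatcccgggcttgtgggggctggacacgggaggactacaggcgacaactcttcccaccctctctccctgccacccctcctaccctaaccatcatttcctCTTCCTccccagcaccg
Robo4: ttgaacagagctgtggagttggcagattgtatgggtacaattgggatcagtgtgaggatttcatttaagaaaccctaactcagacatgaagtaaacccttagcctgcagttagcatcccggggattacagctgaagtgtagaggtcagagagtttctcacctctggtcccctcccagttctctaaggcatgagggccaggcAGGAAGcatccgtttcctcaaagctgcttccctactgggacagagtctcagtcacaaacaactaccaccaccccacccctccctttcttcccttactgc
Cldn5: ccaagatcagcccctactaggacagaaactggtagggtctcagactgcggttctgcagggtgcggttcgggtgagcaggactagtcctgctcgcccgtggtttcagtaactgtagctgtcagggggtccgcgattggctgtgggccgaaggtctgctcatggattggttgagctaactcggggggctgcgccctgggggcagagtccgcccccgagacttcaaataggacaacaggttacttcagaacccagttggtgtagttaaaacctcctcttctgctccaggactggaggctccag
Dll4: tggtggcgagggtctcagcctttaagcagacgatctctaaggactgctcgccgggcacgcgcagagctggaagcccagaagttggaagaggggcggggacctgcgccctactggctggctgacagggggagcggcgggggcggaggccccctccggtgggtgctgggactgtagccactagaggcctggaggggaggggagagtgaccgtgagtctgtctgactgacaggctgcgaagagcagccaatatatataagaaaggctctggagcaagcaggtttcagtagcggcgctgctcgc
Cck: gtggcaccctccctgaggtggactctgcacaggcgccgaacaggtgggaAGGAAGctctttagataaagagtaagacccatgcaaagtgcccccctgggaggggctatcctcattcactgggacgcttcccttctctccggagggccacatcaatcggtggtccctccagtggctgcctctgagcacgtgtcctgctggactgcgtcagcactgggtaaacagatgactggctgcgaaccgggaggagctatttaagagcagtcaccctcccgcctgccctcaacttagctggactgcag

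The Tie1 window held AGGAAG 2 times and those of Robo4 and Cck 1 time each, while neither motif occurred in those of Cldn5 and Dll4. A promoter window was matched for 10155 of the genes tested, 127 of those called higher and 22 of those called lower (for genes with several windows, the window listed first was used). AGGAAG occurred in 32.4% of all these windows, in 43.3% of those called higher and in 54.5% of those called lower. AACAAT occurred in 5.52% of all windows, in 9.45% of those called higher and in 4.55% of those called lower. The median window of all genes was 61.3% G and C with 21 CG dinucleotides. Windows of genes called higher were at 57.0% with 8 CG dinucleotides and those called lower at 58.0% with 9. Of the 21 called identity genes 11 were matched, and AGGAAG occurred in 8 of them and AACAAT in 3. A match describes these letters in the window and does not show binding.

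Of 13 genes of vessel tone and clotting, 2 were called higher, with a median of 0.47. Without rich Ptprz1+/+ replicate 3 the median was 0.012, and without the library labelled Ptprz1-/- replicate 2 or replicate 3 it was 0.71 or 0.70. Nos3, endothelial nitric oxide synthase, measured 0.24, 0.33 and 7.26 CPM in the Ptprz1+/+ libraries and 0.43, 0.21 and 3.37 CPM in those labelled Ptprz1-/- (4.03, SE 0.47). Ednrb, the endothelin B receptor, measured 116, 52.9 and 305 CPM against 149, 190 and 532 CPM (1.75, SE 0.32), and here the rich library labelled Ptprz1-/- was the highest of all. Vwf, von Willebrand factor of endothelial storage granules, was not called. It measured 0.48, 2.26 and 23.8 CPM in the Ptprz1+/+ libraries and 1.05, 1.31 and 1.78 CPM in those labelled Ptprz1-/-, so that the rich library labelled Ptprz1-/- was 1.37-fold above the nearest poor one. Selp (chosen after its values were seen), the P-selectin stored in the same granules, was likewise not called, at 6.94, 5.23 and 51.5 CPM against 1.61, 3.30 and 1.91 CPM. Thrombomodulin (Thbd) ranged from 255 to 686 CPM, with its highest value in a poor library.

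Of 15 Notch, angiopoietin and sprouting genes tested, 5 were called higher and the median was 1.08. Dll4, the Notch ligand of arterial and tip cells, had 2, 6 and 184 reads in the Ptprz1+/+ libraries and 2, 0 and 46 reads in those labelled Ptprz1-/-. In the latter the ratio of the rich to the pooled poor libraries was 46.6 (exact 95% interval 12.2 to 396, counting error only). The receptors Notch1 (12.4, 17.7 and 41.8 CPM against 8.00, 10.3 and 23.2 CPM) and Notch4 (3.74, 12.2 and 25.9 CPM against 3.60, 1.03 and 11.8 CPM) were called higher, together with the ligand Jag2 and with Angpt2, the angiopoietin of vessel remodelling (11.8, 20.8 and 87.1 CPM against 14.4, 16.5 and 52.5 CPM). The receptor Nrp1 was not called, at 392 and 246 CPM in the rich libraries and 84.5 to 203 CPM in the poor ones, although both rich values were above all poor ones. Unc5b, a netrin receptor, was not called either and ranged from 84.5 to 216 CPM.

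Of 10 lung capillary genes tested, 4 were called higher with a median of 1.49. Gpihbp1, which carries lipoprotein lipase to the capillary lumen, had the largest fitted change of any listed gene (5.90, SE 0.54), from 1, 6 and 188 reads in the Ptprz1+/+ libraries and 1, 1 and 70 in those labelled Ptprz1-/-. In the latter the ratio of rich to pooled poor was 70.9 (exact 95% interval 18.9 to 597, counting error only). Plvap, Ramp2 and Ednrb were the others called. Defining genes of lung capillaries were at or near 0 in rich libraries too: Car4 had 3 and 1 reads and Aplnr 4 and 10 reads there, and neither was tested. Lipid handling genes had a median of -0.01, with Gpihbp1 called higher and the endothelial lipase gene Lipg called lower (4.10, 3.03 and 0.95 CPM against 11.7, 8.17 and 1.78 CPM). Fabp4, a fatty acid carrier of capillaries, measured 37.6, 29.8 and 71.2 CPM against 22.2, 34.5 and 34.0 CPM and was not called. Cav1 and Cavin2 (Sdpr in the file), of caveolae, ranged from 67.5 to 214 CPM and from 169 to 339 CPM, with their highest values in poor libraries.

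Of 9 lymphatic genes tested, Lyve1 was the 1 called higher, with 1.69, 0.72 and 38.8 CPM in the Ptprz1+/+ libraries and 0.99, 1.37 and 7.19 CPM in those labelled Ptprz1-/- (3.97, SE 0.65). Prox1, the defining transcription factor of lymphatic endothelium, was not called, at 0.66, 1.65 and 4.55 CPM against 1.05, 0.55 and 0.86 CPM. Pdpn, which mesothelium and stroma also express, lay between 202 and 283 CPM in all libraries, and Flt4 between 15.0 and 64.5 CPM.

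**Figure D2:**
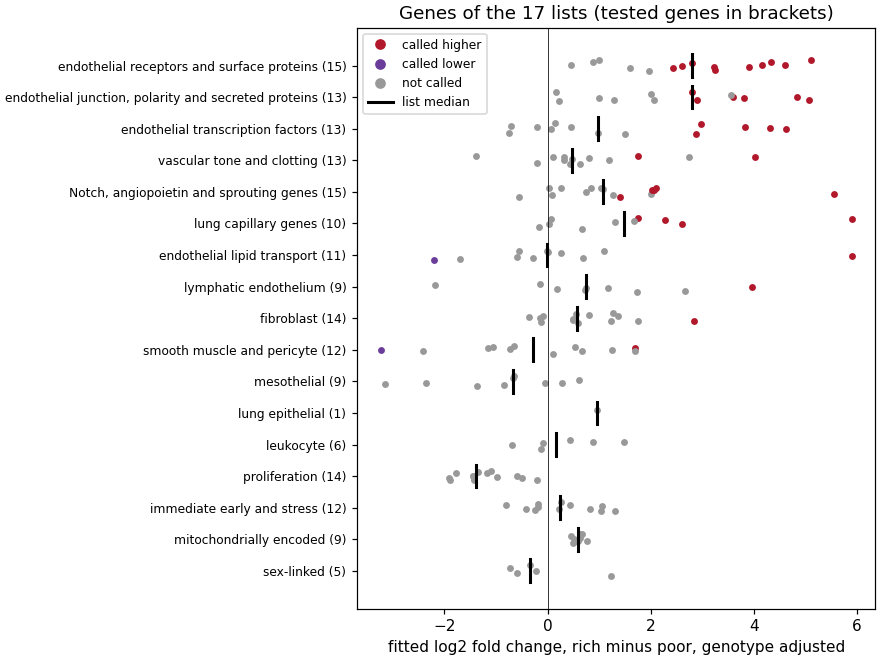
Fitted log2 fold change (rich minus poor, adjusted for genotype) of each tested gene of the 17 lists, with the number tested in brackets. Points are genes, coloured by whether they were called, and black bars are list medians. The receptor and junction lists have medians of 2.79, while the fibroblast list lies at 0.57 with 1 gene called and the immediate early list at 0.24 with 0 called.

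Markers of other cell types were present in both kinds of library. Of 14 fibroblast genes, Dpt (dermatopontin) was the 1 called higher, at 16.7, 20.1 and 176 CPM against 3.47, 27.0 and 78.9 CPM. The list had a median of 0.57 (0.29 without the rich library labelled Ptprz1-/- replicate 3). Its summed level was 36508 and 36052 CPM in the rich libraries and 21712 to 28663 CPM in the poor ones. Taken singly, 5 of the 14 genes were above all poor libraries in both rich ones, against 1383 of all 13353 genes. The sum of the called endothelial identity genes was also above all poor libraries, which the rule for a call fixes within each genotype. The sum of all 3 identity lists, called or not, was not above all poor libraries. Col3a1 measured 6845, 5589 and 12466 CPM in the Ptprz1+/+ libraries and 4546, 4124 and 13900 CPM in those labelled Ptprz1-/- (1.36, SE 0.27), which was not enough for a call in Ptprz1+/+. Col1a1, at 5704, 4814 and 5995 CPM against 3791, 2496 and 5373 CPM, and Dcn, at 488, 1661 and 1291 CPM against 290, 598 and 1090 CPM, were not called. Pdgfra, the receptor that marks lung fibroblasts, was highest in poor Ptprz1+/+ replicate 2 (955 CPM) and between 324 and 501 CPM elsewhere. The part of fibroblast RNA in the contrast was not tested.

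Of 12 smooth muscle and pericyte genes, Notch3, a receptor of mural cells, was called higher (24.5, 25.1 and 106 CPM against 21.3, 22.7 and 51.3 CPM) and Cnn1, a calponin of contractile cells, was called lower (73.8, 10.1 and 3.79 CPM against 84.8, 15.9 and 6.20 CPM). Acta2, smooth muscle actin, measured 2155, 145 and 703 CPM against 1636, 332 and 367 CPM, and Myh11 48.9, 9.69 and 7.95 CPM against 40.7, 9.89 and 28.4 CPM, with the first replicate of each genotype highest. The summed list was 2050 and 1769 CPM in the rich and 926 to 4725 CPM in the poor libraries. Of 9 mesothelial genes 0 were called, and their sum was 1142 CPM in the poor library labelled Ptprz1-/- replicate 1 and 56.3 to 260 CPM elsewhere. Msln, mesothelin, reached 204 CPM in that library and lay between 1.54 and 26.9 CPM in the others.

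Epithelial and blood cells left little RNA. Of the lung epithelial list only Ager was tested, at 0.66 to 2.24 CPM, and surfactant protein C (Sftpc) had 0 to 2 reads per library. Of 6 leukocyte genes tested 0 were called. The common leukocyte antigen Ptprc had 1 to 9 reads per library and was not tested, and Lyz2, lysozyme of macrophages, was highest in rich Ptprz1+/+ replicate 3 at 40.1 CPM and at 6.25 to 17.5 CPM elsewhere.

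Lists of cell states showed where single libraries stood apart. Proliferation genes had a median of -1.38 with 0 of 14 called. The median rested on single libraries, at -0.56 without poor Ptprz1+/+ replicate 2, -0.31 without rich Ptprz1+/+ replicate 3 and -2.58 without the rich library labelled Ptprz1-/- replicate 3. Mki67 was at 236 CPM in poor Ptprz1+/+ replicate 2, at 17.8 and 20.7 CPM in the rich libraries and at 11.2 to 40.7 CPM in the other poor ones. Immediate early genes had a median of 0.24 with 0 of 12 called (-0.50 without rich Ptprz1+/+ replicate 3, 1.11 without the library labelled Ptprz1-/- replicate 2), and were highest in the poor library labelled Ptprz1-/- replicate 2, where Fos reached 411 CPM against 6.88 to 71.4 CPM elsewhere. All 9 mitochondrially encoded genes tested were above each poor library in both rich libraries, as were 1383 of the 13353 genes tested. None of the 9 mitochondrial genes passed the 2-fold limit. These transcripts were 1.17% and 1.12% of all counted reads in the rich libraries and 0.66% to 0.92% in the poor ones (median log2 fold change 0.60, or 0.38 without rich Ptprz1+/+ replicate 3). The part of these states in the contrast was not tested.

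Most of the genes called higher were on none of the 17 lists: 164 of the 197. The 10 with the largest fitted change among those averaging at least 5 CPM were Cxcl13, Wfdc17, Stab1, Clec3b, Ndnf, Ngfr, Bmp3, Olfml1, Adgrf5 and Mest. Cxcl13, a chemokine that attracts B cells, measured 0.12, 1.10 and 25.5 CPM in the Ptprz1+/+ libraries and 0.12, 0.41 and 25.1 CPM in those labelled Ptprz1-/- (5.89, SE 0.75). Its 2 rich values were nearly equal, unlike those of the endothelial genes. Stab1, a scavenger receptor of sinusoidal endothelium and macrophages, measured 1.99, 5.17 and 180 CPM against 2.05, 3.02 and 22.4 CPM (4.59, SE 0.68). Adgrf5 (Gpr116 in the file), an adhesion receptor of lung endothelium and alveolar epithelium, measured 3.26, 2.31 and 47.3 CPM against 3.10, 0.89 and 15.8 CPM (3.57, SE 0.51). Wfdc17 (4.74, SE 0.97), a secreted protease inhibitor family member, Clec3b, tetranectin (4.24, SE 1.23), and Ndnf, a secreted neurovascular factor (3.94, SE 0.69), had their highest poor value in the library labelled Ptprz1-/- replicate 2.

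Other genes of this group were chosen after their values were seen. Of 5 tested members of the Gimap family, GTPases of lymphocytes and endothelium, 4 were called higher. Gimap4 had 68 reads in rich Ptprz1+/+ replicate 3 and 0 in both poor Ptprz1+/+ libraries, at least 49.7-fold higher when 3 reads are set over both poor libraries. Pcdh12, an endothelial protocadherin, had 41 reads in the rich library labelled Ptprz1-/- and 0 in both poor ones, at least 27.7-fold higher on the same footing. Cxcr4, the receptor of the chemokine Cxcl12, measured 0.36, 0.39 and 10.9 CPM against 0.56, 0.41 and 8.65 CPM (4.49, SE 0.31).

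Secreted growth factors were also among the genes called higher. Ptn, which encodes pleiotrophin, the ligand of the targeted phosphatase, measured 44.7, 20.9 and 156 CPM in the Ptprz1+/+ libraries and 14.0, 9.55 and 99.9 CPM in those labelled Ptprz1-/- (2.68, SE 0.37), so that each rich library was above every poor one. Its relative Mdk, midkine, was not called at 28.5, 94.7 and 90.3 CPM against 34.4, 29.6 and 145 CPM. The lymphatic growth factors Vegfd (Figf in the file; 547 and 313 CPM rich, 25.4 to 95.7 CPM poor) and Vegfc (101 and 60.5 CPM rich, 13.0 to 28.6 CPM poor) were called higher. Igf2, a fetal growth factor, measured 6.82, 2.86 and 36.2 CPM against 5.64, 10.2 and 118 CPM (3.43, SE 0.44), and H19, the noncoding RNA beside it, 40.1, 54.3 and 180 CPM against 24.4, 40.6 and 669 CPM (3.32, SE 0.60). For both, the rich library labelled Ptprz1-/- was the highest of the 6.

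Some genes of the extracellular matrix, and a few known from the neural crest, were called higher as well. Sparcl1, a matricellular protein of vessels and stroma, measured 34.0, 57.7 and 323 CPM against 22.3, 46.1 and 348 CPM (3.09, SE 0.36). The small proteoglycans Ogn (339 and 467 CPM rich, 25.9 to 122 CPM poor) and Fmod (6.25 and 10.6 CPM rich, 0.39 to 2.13 CPM poor) and elastin, Eln (23.9 and 51.0 CPM rich, 3.56 to 20.3 CPM poor), were highest in the rich library labelled Ptprz1-/-. Ngfr, the low-affinity neurotrophin receptor of neural crest and Schwann cells, measured 0.54, 7.21 and 18.4 CPM against 0.31, 0.34 and 12.9 CPM (3.75, SE 1.13). Foxd3, a neural crest factor, and Cdh19, a cadherin of Schwann cell precursors, were called at 1.25 to 2.53 CPM in the rich libraries. Sox10, the defining factor of that lineage, was not called at 0.12, 1.71 and 2.27 CPM against 0, 0.14 and 2.11 CPM.

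Of the 26 genes called lower, 24 were on no list. Cck, the peptide cholecystokinin, measured 96.8, 228 and 4.10 CPM in the Ptprz1+/+ libraries and 27.4, 65.3 and 0.59 CPM in those labelled Ptprz1-/- (-5.64, SE 0.71), and Hsd3b6, a steroid dehydrogenase, 50.3, 27.8 and 0.95 CPM against 5.09, 27.5 and 0.20 CPM (-5.67, SE 0.99). The chemokine Cxcl14 measured 114, 44.7 and 1.33 CPM against 48.1, 99.2 and 4.42 CPM (-4.82, SE 0.78). For these genes the rich libraries lay below all 4 poor ones.

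The proteases Mcpt8 (13.2, 11.7 and 0.44 CPM against 4.84, 3.02 and 0.26 CPM) and Gzme (18.5, 13.7 and 0.57 CPM against 7.26, 11.3 and 1.06 CPM), which belong to families of closely related genes expressed in mast cells, basophils and lymphocytes, were called lower too. Gzmd, a relative of Gzme, had 101 and 44 reads in poor Ptprz1+/+ libraries, 24 and 22 in the poor ones labelled Ptprz1-/-, and 0 reads in both rich libraries, which allows up to 0.19 and 0.20 CPM there. Ptgs2, the inducible cyclooxygenase, measured 82.7, 90.7 and 21.1 CPM against 37.1, 131 and 9.77 CPM (-2.53, SE 0.61). The transporters Slc6a12 (-3.90, SE 1.03) and Slc6a17 (-2.60, SE 0.51), the protease Klk8 (-2.67, SE 0.37) and the receptor Adcyap1r1 (-2.93, SE 0.71) were the others of the 10 with the largest change. Hmga1, a chromatin protein of growing cells, (chosen after its values were seen) was called lower at 158, 171 and 57.9 CPM against 210, 216 and 69.6 CPM (-1.56, SE 0.13). It shares 1602 bases at 99.8% identity with Hmga1b, so its reads are uncertain.

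**Figure D3:**
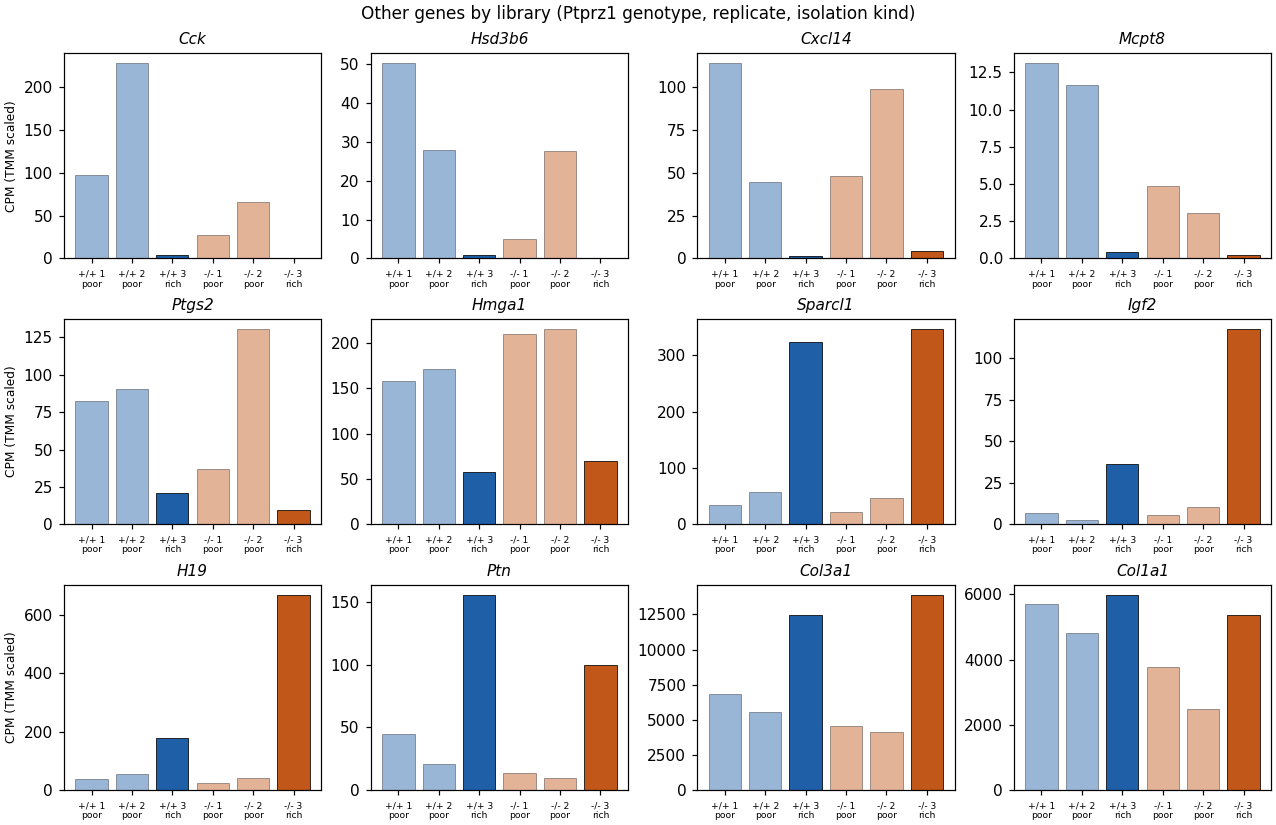
Expression of 12 further genes in each library, in CPM on a linear axis that starts at 0 and is scaled per gene, with colours as for the endothelial genes. Cck, Hsd3b6, Cxcl14, Mcpt8, Ptgs2 and Hmga1 were called lower in the rich libraries. Sparcl1, Igf2, H19 and Ptn were called higher, Igf2 (118 CPM) and H19 (669 CPM) being highest in the rich library labelled Ptprz1-/-, and Col3a1 and Col1a1 were not called.

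The rich-minus-poor differences of the 2 genotypes rest on separate libraries. In Ptprz1+/+, 393 genes were at least 2-fold higher than in both poor libraries, and in the libraries labelled Ptprz1-/- 402 were. The 197 shared genes were 50.1% of the former and 49.0% of the latter. Of the genes at least 2-fold lower, 180 and 120, the 26 shared ones were 14.4% and 21.7%. A difference of 2-fold in opposite directions was found for 3 genes. Across the 13353 genes, which are not independent of each other, the 2 differences correlated with Pearson's r of 0.55 and Spearman's rho of 0.43. Deviations from the genotype mean correlated between genotypes at 0.56 for replicate 3. They correlated at 0.46 for replicate 1 and -0.05 for replicate 2, which were poor in both genotypes. Deviations within a genotype depend on each other.

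**Figure D4:**
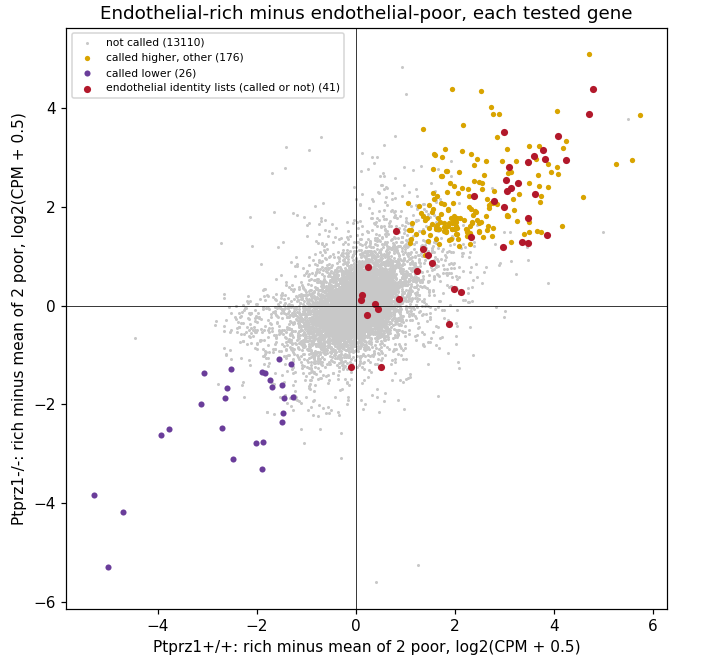
Difference between the endothelial-rich library and the mean of the 2 poor libraries, as log2(CPM + 0.5), in Ptprz1+/+ (x axis) and in the libraries labelled Ptprz1-/- (y axis). Each point is 1 of 13353 genes, coloured by its call, with the 41 tested endothelial identity genes in red. The 197 genes called higher fall in the upper right and the 26 called lower in the lower left.

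The 2 rich libraries differed in the levels of endothelial genes. All 21 called identity genes were higher in the Ptprz1+/+ rich library than in the one labelled Ptprz1-/-, with a median ratio of 2.49 (1.47 to 4.12). Of all 41 tested identity genes, 38 were higher in the Ptprz1+/+ rich library. With 1 rich library per genotype, this ratio describes the pair and is not a result about genotype. Of the 164 called genes on no list, 64 were higher in the rich library labelled Ptprz1-/-, and the median ratio was 1.34 (0.24 to 10.1). Ratios of listed genes called outside the identity lists had a median of 2.11, and of these 12 genes only Ednrb was higher in the library labelled Ptprz1-/-. Beyond the genes called, Vwf and Selp had ratios of 13.4 and 26.9.

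**Figure D5:**
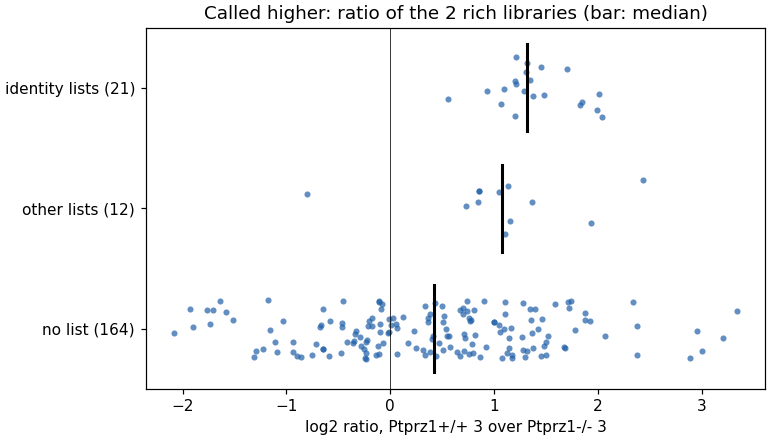
Log2 ratio of the CPM in rich Ptprz1+/+ replicate 3 to that in the rich library labelled Ptprz1-/- replicate 3 for the 197 genes called higher. Points are genes, black bars are medians, and points right of 0 were higher in the Ptprz1+/+ library. All 21 identity genes lie right of 0, and 64 of the 164 genes on no list lie left of it.

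Because each genotype had 1 rich and 2 poor libraries, genotype could be tested with the kind of isolation as a term of the model. This asks which genes differ between genotypes once the division into rich and poor is accounted for. Differences in endothelial content within a kind are not removed by such a term. Cdh5 was at 199 CPM in the rich Ptprz1+/+ library and 61.2 CPM in the rich one labelled Ptprz1-/-. In the poor libraries it was at 8.69 and 14.4 CPM against 3.60 and 7.42 CPM. With edgeR's quasi-likelihood test and Benjamini-Hochberg adjustment, 0 of 13353 genes (0%) passed an adjusted p of 0.05, and 447 had an unadjusted p under 0.05. The smallest adjusted p was 0.89. Without the term 0 genes passed, and 356 had an unadjusted p under 0.05. Both 447 and 356 are a smaller share of the 13353 genes than the 0.05 expected when no gene differs. DESeq2's Wald test with the same terms called 60 genes, 17 of them with higher and 43 with lower levels under the label Ptprz1-/-, of which Tie1 and Egfl7 were identity genes.

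Most of the called identity genes were lower in the libraries labelled Ptprz1-/- of both kinds. For 18 of the 21, the mean of the 2 poor libraries was lower than in Ptprz1+/+, and the fitted genotype difference was below 0 for 20, with a median log2 fold change of -1.18, where the median of all genes was -0.00. Over all 41 tested identity genes the pattern was weaker: the poor mean was lower for 26, against 6739 of the 13353 genes tested, and the median genotype difference was -0.68. Tie1 differed by -1.34 (SE 0.17) between genotypes after adjustment for kind, with an adjusted p of 0.89 by edgeR, and by -1.36 with an adjusted p of 0.0020 by DESeq2. Egfl7 differed by -1.45 (SE 0.34, adjusted p of 0.99 by edgeR, 0.043 by DESeq2), and Cdh5 by -1.30 (SE 0.35, adjusted p of 0.99 by edgeR). These differences therefore did not pass the main test. The part of endothelial content in these differences was not tested.

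Whether the rich-minus-poor difference itself differed between genotypes was tested as an interaction, for which the spread comes from the 2 pairs of poor libraries. In edgeR's test 0 of 13353 genes (0%) passed and 57 had an unadjusted p under 0.05. DESeq2 called 2, Yam1 and Lars2, both low in the rich library labelled Ptprz1-/-. For the 21 called identity genes the interaction ranged from -2.38 to 0.90 on the log2 scale with a median of -0.63, below 0 for 15. For Tie1 it was -0.06 (SE 0.50) and for Cdh5 -0.63 (SE 0.75). H19, at 2.44 (SE 0.59), Vwf, at -3.51 (SE 1.33), and Selp, at -3.43 (SE 0.78), had large values, each with an adjusted p of 1.00. No size of difference passed edgeR's test with 2 poor and 1 rich library per genotype: Lars2, at -6.61 (SE 0.83), also had an adjusted p of 1.00.

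Strand use in counting was not given in the sources used here. Some genes overlap the span of another gene on the opposite strand. Among them are Yam1 (the rRNA gene CT010467.1), Cdh5 (Gm29682), Egfl7 (Agpat2), Nos3 (Atg9b), Eng (Fpgs), Mest (Copg2) and Ogn (Cenpp). Where exons overlap too, which was not checked, the reads of both genes cannot be told apart without the strand. Igf2 shares 3598 bases at 100% identity with the readthrough gene Gm49394.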

How the data were processed

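Gene-level RNA-seq tables of 6 libraries of mouse lung microvascular endothelial cells were used. The authors deposited unnormalized read counts per gene for 21999 genes, with FPKM values computed per gene length and library total. Their fold changes, p-values and lists of called genes, also deposited, were not used. The submitters' processing notes name STAR, TopHat, HTSeq, DESeq2 and edgeR and the build GRCm38 (mm10), with no roles or versions. Library totals (14496881 to 17709663 reads) mean that genes near 1 CPM rest on few reads. Symbols of 21755 identifiers were taken from GENCODE M21.

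Counts were analysed with edgeR 4.0.16 in R 4.3.3 (TMM, glmQLFit, glmQLFTest, Benjamini-Hochberg adjustment, threshold 0.05), keeping genes with at least 1 CPM in at least 2 libraries. The SE is the absolute log2 fold change over the square root of F. DESeq2 1.42.0 was an alternative. The functions were tested on simulated data. Libraries were divided by Pecam1, so this contrast has no p-value. The isolations were treated as independent. Their titles give a genotype and a replicate number and do not say which were prepared together. The members, lists and tests were chosen with earlier results of these data known. Named genes are 32 chosen by name, the 2 most abundant of each list, and the 10 genes on no list with the largest change among those called in each direction and averaging at least 5 CPM; genes chosen after their values were seen include Igf2, H19, Ptn, Mdk, Vegfd, Vegfc, Sparcl1, Selp, Hmga1 and the matrix and neural crest genes. The members of each list that are given as counts or examples follow from the list. Near-identical transcripts (hits of at least 100 bases and 95% identity) were sought with minimap2 2.31. Alternatives were other normalizations, filters, fold limits and added CPM, other terms in the model, and each library left out.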

Additional observations from a re-analysis of the deposited data

How the results depend on the processing

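The number of genes called higher in endothelial-rich libraries (197) was 101 with at least 10 counts in every library and 43 at 4-fold, and the number called lower (26) was 14 and 5 under the same alternatives, 17 with 1 CPM added and 45 with 0.1 CPM added. Leaving out 1 library, which leaves fewer ratios for a call to pass, gave 213 to 404 called higher and 34 to 170 called lower. Endothelial identity genes called higher (21) were 10 with at least 10 counts in every library, where the junction median was 1.29 and the transcription factor median 0.15; the latter was 1.87 with no filter. Leaving out 1 library gave medians of 2.04 to 3.12 for receptors, 1.87 to 3.20 for junction proteins and 0.67 to 1.25 for transcription factors. Small list medians changed sign: lipid transport (-0.0064) was 0.0065 with upper-quartile scaling, 0.011 with DESeq2 size factors, 0.017 with scaling to library totals alone, 0.0091 with no filter, 0.0020 with at least 10 counts, 0.0029 with no genotype term and -0.14 to 0.18 with a library left out. With a library left out smooth muscle ran from -0.40 to 0.25 (0.12 with no filter), mesothelial from -1.002 to 0.057, leukocyte from -0.15 to 0.70 (-0.091 with no filter), immediate early from -0.50 to 1.11 (-0.20 with no genotype term) and sex-linked from -1.71 to 1.25, and epithelial was -0.53 with no filter. Apart from the filter's removal of genes with few reads and the fewer ratios behind some calls, the causes were not tested.

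The genotype count of 0 was 0 under edgeR's other settings, 0 with any library left out, and 60 by DESeq2; the interaction count of 0 was 2 by DESeq2. With the replicate block in place of kind the genotype count was 0 (687 unadjusted). The replicate numbers were not treated as pairs, as the titles do not say which isolations were prepared together. Deviations from the genotype mean correlated at 0.46, -0.05 and 0.56 for numbers 1, 2 and 3. Of the 6 libraries, 4 correlated best with their own number. Whether isolations of the same number shared a preparation was not tested. Rich against poor could not be fitted with the block, since both rich libraries are number 3. Of the alternatives for single genes and other lists, 1443 stayed within the spread between libraries, 59 moved beyond it and 23 changed sign. Sign changes were counted only for lists and for genes that were called.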
